A study of Homo sapiens with 10 samples.

Results

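The collagen genes are the members of the collagen family, taken here as every gene symbol made of COL, a number, A and a number. The rule found 44 of the 52402 symbols in the count files, and 22 of the 44 reached 10 or more read counts in at least 2 of the 10 libraries and are called measured. The other 22 are called unmeasured. BEAS2B, an immortalized line from normal human bronchial epithelium, was transfected with a Lipofectamine reagent and profiled by mRNA-sequencing, with 2 libraries in each of 5 groups. Every group was the same wild-type line and received the same transfection reagent. The miRcontrol group received a scrambled miRNA, the miR3124_mimic group a mimic of miR-3124-5p, and the miR200b_mimic group a mimic of miR-200b-3p. The miR92b_inhibitor group received an inhibitor of miR-92b, for which the labels name no arm, and the 3-miRNA mixed group (miRNA_mixture in the plots) received both mimics and the inhibitor together. Per the study's methods each agent was used at 50 nM and cells were transfected for 48 h, and the amount of each agent in the mixed group was not given in the sources used here. The libraries held between 13587666 and 18503890 counts. No label says whether the 2 libraries of a group came from separate transfections, so the p-values measure only the spread between these libraries, which may be technical.

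Collagens are extracellular matrix proteins built from chains that wind into triple helices, and a chain is useful to the cell mainly together with its partner chains. Fibrillar collagens form the load-bearing fibrils of connective tissue, type IV collagen forms the sheet-like network of basement membranes on which bronchial epithelium rests, and type VII collagen anchors that sheet to the tissue below. The miR-29 family is the best known miRNA regulator of collagens: its seed, the stretch near the 5′ end of a miRNA that pairs with its targets, matches sites in the 3′UTRs of many collagen mRNAs and lowers them.

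The mature sequences that bear on the comparisons are shown 5′ to 3′ from RefSeq (GRCh38.p14), with the seed (bases 2 to 8) in capitals. The members of the miR-29 family share 1 seed, and none of the transfected miRNAs has it.
hsa-miR-29a-3p: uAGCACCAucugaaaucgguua
hsa-miR-29b-3p: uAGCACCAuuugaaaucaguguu
hsa-miR-29c-3p: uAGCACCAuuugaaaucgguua
hsa-miR-3124-5p: uUCGCGGGcgaaggcaaaguc
hsa-miR-200b-3p: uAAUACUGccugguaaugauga
hsa-miR-92b-5p: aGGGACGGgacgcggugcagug
hsa-miR-92b-3p: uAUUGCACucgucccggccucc

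The 7-base complement of the miR-29 seed, TGGTGCT, was searched on the mRNA strand of the 3′UTR of each gene's longest coding transcript (GENCODE v29, GRCh38). It stood in 13 of the 22 measured collagens, or 59.1%, and in 2021 of 12296 tested genes with a 3′UTR, or 16.4%. The median 3′UTR was 1105 bases long in the measured collagens and 1334 bases in the tested genes. COL5A1 held 4 matches, COL7A1 held 2, and COL15A1, COL16A1, COL1A1, COL27A1, COL4A1, COL4A2, COL4A5, COL4A6, COL5A2, COL6A2 and COL8A1 held 1 each. The 7 windows below, each 22 bases long with the match in capitals, belong to genes whose levels moved in different ways between the groups.
COL4A1: ctaatgtcacaacaTGGTGCTa
COL4A2: aggaagggccatttTGGTGCTt
COL1A1: ggggagggaatcacTGGTGCTa
COL7A1: actgtccctcccctTGGTGCTa
COL8A1: tgtgcattctacaaTGGTGCTa
COL5A1: ttgtggctctcttgTGGTGCTa
COL27A1: cactgtgaaatcgcTGGTGCTc

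These windows lie in the 3′UTR part of the last exon of their genes, at chr13:110150326-110150347 on the minus strand (COL4A1, exon 52), chr13:110512205-110512226 on the plus strand (COL4A2, exon 48) and chr17:50184572-50184593 on the minus strand (COL1A1, exon 51). The COL7A1 window, the first of its 2 matches, is at chr3:48564322-48564343 on the minus strand (exon 118). The COL8A1 window is at chr3:99798746-99798767 on the plus strand (exon 5). The COL5A1 window, the second of its 4 matches, is at chr9:134843368-134843389 on the plus strand (exon 66), and the COL27A1 window is at chr9:114311286-114311307 on the plus strand (exon 61). In 10 of the 13 genes at least 1 match was followed by an A, the form known to pair most effectively, and COL4A2, COL16A1 and COL27A1 had none of this form. A match of 7 letters is a description of the sequence, and binding was not measured.

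The repertoire of this cell line was uneven. The unmeasured members were COL11A1, COL11A2, COL14A1, COL19A1, COL1A2, COL20A1, COL21A1, COL22A1, COL23A1, COL24A1, COL25A1, COL26A1, COL28A1, COL2A1, COL3A1, COL4A3, COL4A4, COL5A3, COL6A3, COL6A5, COL6A6 and COL9A1, of which 4 had no count in any library. COL6A3 came closest to the limit, with 11 counts in 1 library and at most 8 in each of the others. Just inside the limit, COL9A3 reached 10 counts in 2 libraries, both of miR3124_mimic, and COL9A2 in 4. COL1A2, the usual partner of COL1A1 in the type I collagen trimer, had at most 4 counts in any library, although COL1A1 was measured. COL6A3, the third chain of the usual type VI trimer, was likewise missing beside COL6A1 and COL6A2.

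All 22 measured members passed edgeR's filter on low counts, so each was among the 14884 genes tested. Levels are in normalized CPM (counts after scaling by library size and RLE factor), and in CPM per kb of transcript where genes are compared with each other. Averaged over the 10 libraries, COL4A2 had the highest level at 56.3 CPM per kb, followed by COL4A1 at 27.9, COL13A1 and COL8A1 at 27.1 each, COL5A1 at 16.3, COL12A1 at 15.5 and COL5A2 at 11.3. The other 15 measured members lay below 10 CPM per kb, and COL15A1, COL10A1, COL9A3 and COL9A2 averaged at most 1.04 CPM before division by length.

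A difference was called at a Benjamini-Hochberg adjusted p under 0.05 in edgeR's quasi-likelihood test over all tested genes, and a log2 fold change of 1 is a doubling. The 4 comparisons against miRcontrol share the 2 miRcontrol libraries, so they are not independent of each other. In miR3124_mimic, 16 of 22 collagens were higher and 1, COL27A1, was lower, where 25.7% and 25.3% of all tested genes were called higher and lower. Of the 16, 7 changed by at least 2-fold, against 8.13% of all genes for such calls in either direction. Both counts include COL9A3, which was measured only through its reads in miR3124_mimic. The median log2 fold change was 0.74 over the collagens and 0.0039 over all genes.

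In miR200b_mimic 6 were higher and 7 lower, where 21.4% and 19.1% of all genes were called higher and lower. Calls in both directions were thus also seen over all genes. COL1A1 was the 1 member past 2-fold, against 4.88% of genes, and the median was -0.076 over the collagens and -0.0055 over all genes. In miR92b_inhibitor 10 were lower and 1, COL16A1, was higher, where 18.2% and 17.5% of all genes were called lower and higher. None passed 2-fold there, against 1.91% of genes, and the collagen median was -0.25 against -0.0061 for all genes. In the 3-miRNA mixed group 12 were higher and 1, COL5A2, was lower, where 21.5% and 21.1% of all genes were called, and the collagen median was 0.30 against 0.0030. COL15A1 was the 1 member past 2-fold in the mixed group, against 4.67% of all genes.

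**Figure D1:**
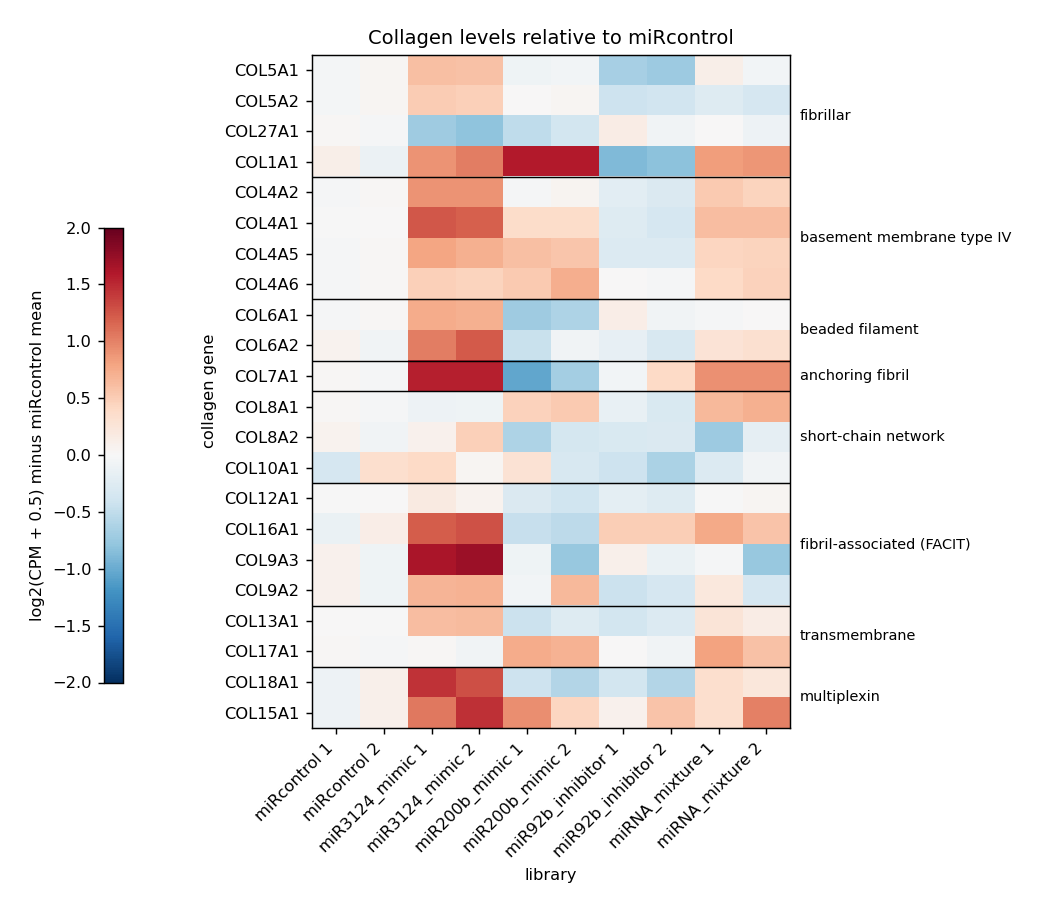
Heat map of the 22 measured collagen genes (rows, grouped by class) in the 10 libraries (columns). Color is log2(CPM + 0.5) minus the mean of the miRcontrol libraries, red for higher and blue for lower. Most rows are red in both miR3124_mimic libraries, with COL27A1 blue, and COL1A1 is reddest in miR200b_mimic.

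Across the 4 comparisons, 19 of the 22 members were called at least once and 6 were called in each, where 75.1% of all tested genes were called at least once and 9.92% in each. Of the 22, 13 were called higher in at least 1 group and lower in at least 1 other, against 21.8% of all genes, and none was called higher in all 4. COL8A2, COL10A1 and COL9A2 were called in none. Their log2 fold changes against miRcontrol ranged from -0.58 to 0.35 in COL8A2, from -1.09 to 0.30 in COL10A1 and from -1.02 to 1.22 in COL9A2.

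Type IV collagen, the basement membrane network, was the most abundant class. COL4A1 and COL4A2 encode the chains of the widespread network, and COL4A5 and COL4A6 encode minor chains found in selected basement membranes. COL4A1 stood at 131 and 133 CPM in the miRcontrol libraries, 315 and 304 in miR3124_mimic and 171 and 170.3 in miR200b_mimic. Its levels were 110.4 and 104 CPM in miR92b_inhibitor and 204 and 204 in the mixed group. No group overlapped another, and the order was miR92b_inhibitor, miRcontrol, miR200b_mimic, mixed group, miR3124_mimic, with every neighbouring pair called.

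The rise of COL4A1 in miR3124_mimic was 2.34-fold (log2 fold change 1.23 ± 0.041 (SE), adjusted p = 5.87e-29). The mixed group reached 0.62 ± 0.042 (SE), miR200b_mimic 0.37 ± 0.043 (SE) and miR92b_inhibitor -0.30 ± 0.044 (SE), with adjusted p of 2.28e-17, 7.22e-10 and 4.29e-07. COL4A1 also carries 1 of the 2 miR-200b-3p seed matches among the measured collagens, and its level in miR200b_mimic was above miRcontrol.

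COL4A2 had 293 and 305 CPM in miRcontrol, 559 and 555 in miR3124_mimic and 431 and 408 in the mixed group. It had 294 and 311 CPM in miR200b_mimic, which overlapped miRcontrol, and 257 and 245 in miR92b_inhibitor. The log2 fold changes were 0.90 ± 0.038 (SE), adjusted p = 9.02e-25 in miR3124_mimic, 0.49 ± 0.038 (SE), adjusted p = 6.26e-15 in the mixed group and -0.25 ± 0.040 (SE), adjusted p = 1.62e-06 in miR92b_inhibitor. In miR200b_mimic the difference was 0.019 ± 0.040 (SE) with a 95% interval -0.060 to 0.10 (adjusted p = 0.739).

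COL4A1 and COL4A2 are arranged head to head on chromosome 13 and are transcribed in opposite directions, with gene spans that overlap by 1422 bases and no shared exon base in the annotation. The ratio of COL4A2 to COL4A1 in CPM, to which no test was applied, was 2.26 ± 0.045 (SD, n = 2) in miRcontrol and 2.34 ± 0.012 in miR92b_inhibitor, 2.06 ± 0.078 in the mixed group, 1.80 ± 0.035 in miR3124_mimic and 1.77 ± 0.072 in miR200b_mimic.

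COL4A5 and COL4A6 lie head to head on the X chromosome, 346 bases apart. COL4A5 averaged 45.2 CPM in miRcontrol and rose by 0.75 (log2) in miR3124_mimic, 0.58 in miR200b_mimic and 0.44 in the mixed group, and was lower at -0.27 in miR92b_inhibitor. COL4A6 averaged 17.4 CPM and rose by 0.48, 0.65 and 0.44 in the same 3 groups. In miR92b_inhibitor COL4A6 differed from miRcontrol by -0.011 ± 0.10 (SE) (adjusted p = 0.951). All 4 measured type IV chains were called higher in both miR3124_mimic and the mixed group, and 3 of 4 were called higher in miR200b_mimic and 3 of 4 lower in miR92b_inhibitor.

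**Figure D2:**
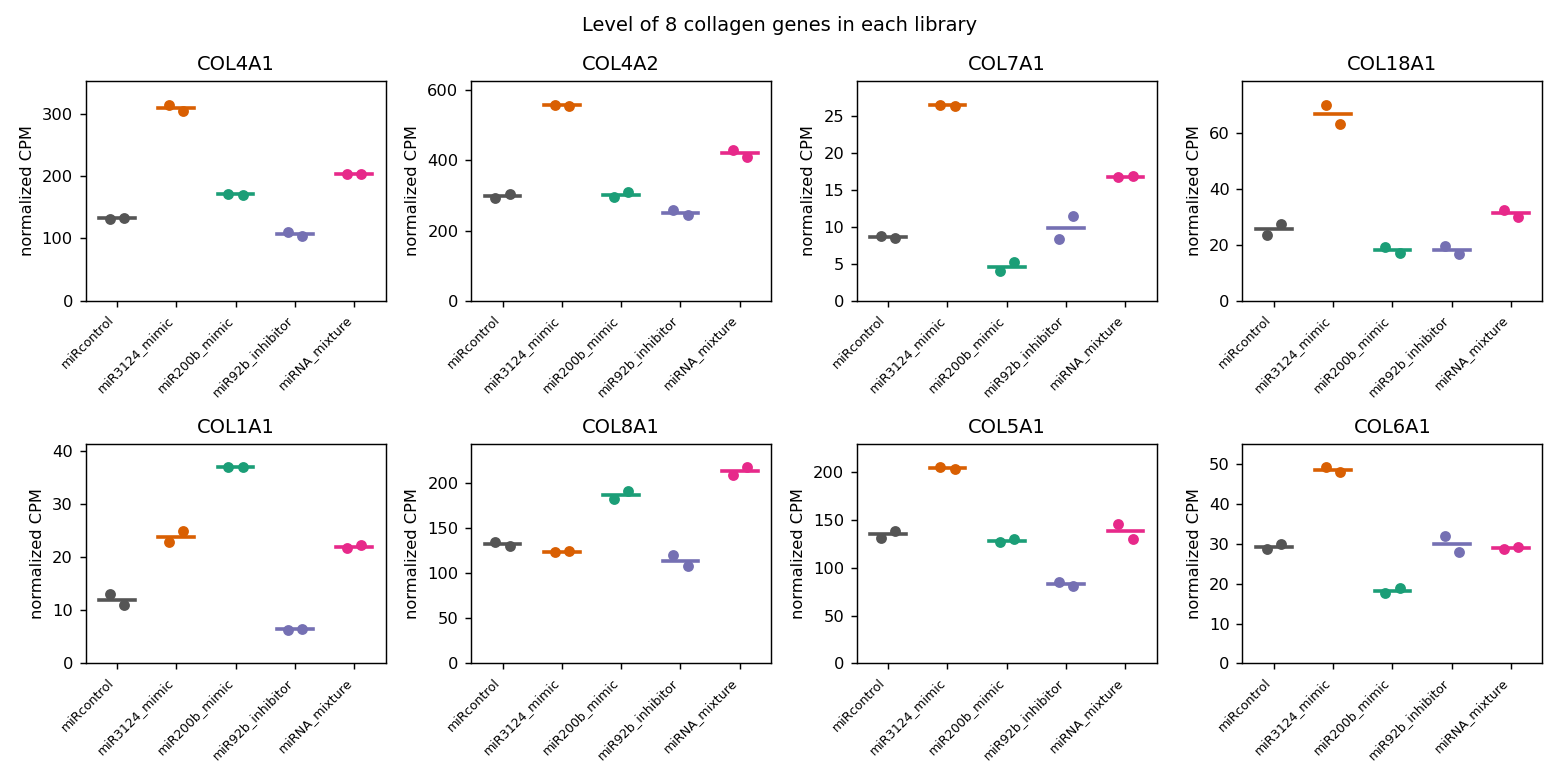
Normalized CPM of 8 collagen genes in each library (points, 2 per group) with the group mean (line), all vertical axes starting at 0. COL4A1, COL4A2, COL7A1, COL18A1, COL5A1 and COL6A1 are highest in miR3124_mimic, COL1A1 is highest in miR200b_mimic at 36.9 CPM in both libraries, and COL8A1 is highest in the mixed group.

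Among the fibrillar collagens, COL1A1, the major chain of type I collagen, had a pattern of its own. It stood at 13.0 and 11.0 CPM in miRcontrol and 36.9 and 36.9 in miR200b_mimic. Its levels were 22.7 and 24.9 CPM in miR3124_mimic, 21.6 and 22.3 in the mixed group and 6.24 and 6.57 in miR92b_inhibitor. The miR200b_mimic libraries were the highest of the 10 and the miR92b_inhibitor libraries the lowest, and the miR3124_mimic and mixed groups lay side by side between them.

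COL1A1 was 3.07-fold above miRcontrol in miR200b_mimic (log2 fold change 1.62 ± 0.10 (SE), adjusted p = 2.92e-19), the widest change of any collagen in that group that was called. It was higher by 0.99 ± 0.10 (SE), adjusted p = 1.05e-11 in miR3124_mimic and by 0.87 ± 0.10 (SE), adjusted p = 5.44e-10 in the mixed group, and lower in miR92b_inhibitor at -0.90 ± 0.13 (SE), adjusted p = 1.3e-07. Between miR200b_mimic and miR92b_inhibitor the levels differed 5.75-fold (adjusted p = 6.74e-25), while the mixed group and miR3124_mimic differed by -0.12 ± 0.090 (SE) (adjusted p = 0.286). The mixed group lay below miR200b_mimic, at -0.75 ± 0.085 (SE), adjusted p = 6.95e-10. In CPM, COL1A1 stood at 0.0908 of COL4A1 in miRcontrol, 0.216 in miR200b_mimic and 0.0597 in miR92b_inhibitor.

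COL5A1 encodes the main chain of type V collagen, which sets the diameter of type I fibrils, and it held the most miR-29 matches. Its level was 131 and 139 CPM in miRcontrol, 205 and 203 in miR3124_mimic and 85.3 and 81.5 in miR92b_inhibitor. In miR200b_mimic it was 127 and 130.2 CPM and in the mixed group 146 and 130.4. Those 2 groups lay close to miRcontrol, and the mixed group overlapped it. COL5A1 rose in miR3124_mimic by 0.60 ± 0.046 (SE), adjusted p = 1.43e-15 and was lower in miR92b_inhibitor at -0.70 ± 0.050 (SE), adjusted p = 1.09e-15, the second widest called fall there after COL1A1. In the mixed group the difference was 0.034 ± 0.047 (SE) (95% interval -0.060 to 0.13).

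COL5A2, its partner chain, averaged 80.0 CPM in miRcontrol and rose by 0.50 in miR3124_mimic, but was lower in miR92b_inhibitor at -0.41 and in the mixed group at -0.30 (adjusted p = 6.08e-06). It was the 1 collagen called lower in the mixed group. The CPM ratio of COL5A1 to COL5A2, also untested, ran from 1.38 ± 0.064 (SD, n = 2) in miR92b_inhibitor through 1.58 ± 0.0011 in miR200b_mimic, 1.69 ± 0.0017 in miRcontrol and 1.81 ± 0.017 in miR3124_mimic to 2.13 ± 0.078 in the mixed group. COL27A1, a fibrillar collagen of cartilage, was the 1 member called lower in miR3124_mimic, at -0.78 ± 0.10 (SE), adjusted p = 3.2e-09. It was also among the 7 called lower in miR200b_mimic, at -0.44 ± 0.10 (SE), adjusted p = 0.000182. It was not called in miR92b_inhibitor at 0.038 or in the mixed group at -0.041.

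The anchoring fibril collagen COL7A1 showed the widest span between the mimic groups among the members above 5 CPM. It stood at 8.81 and 8.48 CPM in miRcontrol, 26.5 and 26.3 in miR3124_mimic and 3.96 and 5.18 in miR200b_mimic. In miR92b_inhibitor it was 8.29 and 11.5 CPM, a pair on either side of miRcontrol, and in the mixed group 16.8 and 16.8. The log2 fold change was 1.61 ± 0.12 (SE), adjusted p = 2.94e-16 in miR3124_mimic and -0.90 ± 0.16 (SE), adjusted p = 1.09e-05 in miR200b_mimic, and the direct comparison of the 2 mimic groups gave 2.50 ± 0.14 (SE), adjusted p = 4.52e-21. The mixed group was above miRcontrol at 0.96 ± 0.12 (SE), adjusted p = 9.95e-09 and below miR3124_mimic at -0.65 ± 0.10 (SE), adjusted p = 7.51e-07.

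The type VI chains, which build beaded filaments close to the cell surface, also rose in miR3124_mimic. COL6A2 went from 6.30 and 5.67 CPM in miRcontrol to 12.6 and 14.7 in miR3124_mimic, a log2 fold change of 1.19 ± 0.14 (SE), adjusted p = 1.1e-09. The mixed group had 7.30 and 7.59 CPM, miR200b_mimic 4.26 and 5.64 and miR92b_inhibitor 5.31 and 4.71, and none of these 3 was called. COL6A1, which has no miR-29 match, averaged 29.2 CPM in miRcontrol, was higher in miR3124_mimic at 0.73 ± 0.074 (SE), adjusted p = 8.59e-12 and lower in miR200b_mimic at -0.68 ± 0.087 (SE), adjusted p = 1.02e-08. In the mixed group COL6A1 differed from miRcontrol by -0.010 ± 0.078 (SE), with a 95% interval -0.17 to 0.15.

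Of the short-chain network collagens, COL8A1, a component of vessel-wall and corneal basement structures, was the 1 abundant member that did not pass the test in miR3124_mimic. Its levels were 135 and 131 CPM in miRcontrol, 123 and 125 in miR3124_mimic and 120.5 and 108 in miR92b_inhibitor. It stood at 182 and 191 CPM in miR200b_mimic and 209 and 218 in the mixed group, and these 4 libraries were above the other 6. The log2 fold change was 0.49 ± 0.046 (SE), adjusted p = 1.29e-12 in miR200b_mimic and 0.68 ± 0.045 (SE), adjusted p = 1.1e-17 in the mixed group, which lay above miR200b_mimic by 0.19 ± 0.044 (SE), adjusted p = 0.000359. In miR3124_mimic it was -0.10 ± 0.047 (SE), adjusted p = 0.0801, and in miR92b_inhibitor it was lower at -0.22 ± 0.047 (SE), adjusted p = 0.000217, a call that was lost without miR92b_inhibitor replicate 2 (-0.14). COL8A2 and COL10A1 averaged 2.47 and 0.656 CPM over all libraries, and neither was called against miRcontrol.

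Among the fibril-associated collagens, which sit on the surface of fibrils, COL12A1 was abundant. Its widest log2 fold change against miRcontrol was the -0.35 in miR200b_mimic. It had 192 and 192 CPM in miRcontrol, 217 and 202 in miR3124_mimic and 156 and 145 in miR200b_mimic. It had 167 and 159.5 CPM in miR92b_inhibitor and 191 and 197 in the mixed group. COL12A1 was lower in miR200b_mimic at -0.35 ± 0.044 (SE), adjusted p = 6.64e-09 and in miR92b_inhibitor at -0.23 ± 0.043 (SE), adjusted p = 3.19e-05. Its rise in miR3124_mimic, 0.13 ± 0.043 (SE), adjusted p = 0.0125, was lost when either miRcontrol library or miR3124_mimic replicate 1 was left out, where it ranged from 0.072 to 0.12.

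COL16A1 stood at 4.06 and 5.01 CPM in miRcontrol, 11.1 and 11.7 in miR3124_mimic and 3.14 and 2.99 in miR200b_mimic. It stood at 6.59 and 6.57 CPM in miR92b_inhibitor and 7.96 and 6.94 in the mixed group. Only the miR200b_mimic libraries were below miRcontrol, and COL16A1 was called higher in the other 3 groups and lower in that 1. The log2 fold changes were 1.33 ± 0.15 (SE), adjusted p = 3.63e-10 in miR3124_mimic, 0.72 ± 0.16 (SE), adjusted p = 0.000275 in the mixed group and 0.54 ± 0.17 (SE), adjusted p = 0.00878 in miR92b_inhibitor. The fall in miR200b_mimic was -0.57 ± 0.20 (SE), adjusted p = 0.0189. The calls in miR92b_inhibitor and miR200b_mimic were lost with the DESeq2 test (values 0.54 and -0.57) and when single libraries were left out. In miR92b_inhibitor the call was lost without miRcontrol replicate 1 (0.39), and in miR200b_mimic without miRcontrol replicate 2 (-0.41) or miR200b_mimic replicate 2 (-0.53).

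COL9A3, a chain of the cartilage collagen type IX, had the widest called change of the family but few reads. It counted as measured only through the miR3124_mimic libraries, so its call in that group is not independent of the rule that admitted it. Its raw counts were 7 and 5 in miRcontrol and 31 and 40 in miR3124_mimic, or 0.401 and 0.298 and 2.12 and 2.26 CPM. The mixed group had raw counts of 6 and 0 (0.332 and 0 CPM), miR200b_mimic 4 and 0 (0.299 and 0 CPM) and miR92b_inhibitor 7 and 5 (0.408 and 0.274 CPM). Both miR3124_mimic libraries were above all others, with a log2 fold change of 2.62 ± 0.53 (SE), adjusted p = 4.33e-05, a call that was not made by DESeq2 (2.65). COL9A3 shares 45 exon bases with TCFL5 on the opposite strand, which had 4076 counts over all libraries against 105 for COL9A3. TCFL5 itself was higher by 0.39 (log2) in miR3124_mimic, and whether counting used the strand is not given in the sources used here.

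The transmembrane collagens differed between members. COL13A1, found at cell adhesion sites, had 82.4 and 81.4 CPM in miRcontrol, 125 and 127 in miR3124_mimic and 98.5 and 91.0 in the mixed group. It had 60.8 and 68.7 CPM in miR200b_mimic and 63.0 and 67.3 in miR92b_inhibitor, both below miRcontrol. COL13A1 was higher in miR3124_mimic at 0.62 ± 0.052 (SE), adjusted p = 2.54e-14 and in the mixed group at 0.21 ± 0.053 (SE), adjusted p = 0.000993, while miR200b_mimic was lower at -0.33 ± 0.057 (SE), adjusted p = 4.65e-06 and miR92b_inhibitor at -0.33 ± 0.056 (SE), adjusted p = 5.73e-06. The rise in the mixed group was 0.15 and no longer called without replicate 1 of that group. COL17A1, the hemidesmosome collagen of epithelial cells, averaged 4.91 CPM in miRcontrol. It was called higher in the groups that received the miR-200b-3p mimic, at 0.77 ± 0.16 (SE), adjusted p = 0.0001 in miR200b_mimic and 0.75 ± 0.16 (SE), adjusted p = 9.1e-05 in the mixed group, and its other values were -0.032 in miR3124_mimic and -0.031 in miR92b_inhibitor.

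The multiplexins COL15A1 and COL18A1 are proteoglycan collagens of basement membrane zones, and COL18A1 is the source of endostatin. COL18A1 stood at 23.8 and 27.6 CPM in miRcontrol, 70.3 and 63.3 in miR3124_mimic and 19.1 and 17.0 in miR200b_mimic. It stood at 19.7 and 16.9 CPM in miR92b_inhibitor and 32.6 and 30.1 in the mixed group. miR200b_mimic and miR92b_inhibitor overlapped each other at the bottom (difference -0.025 ± 0.10 (SE), adjusted p = 0.865), and miR3124_mimic lay above all other libraries. The log2 fold change was 1.38 ± 0.078 (SE), adjusted p = 4.36e-20 in miR3124_mimic and 0.29 ± 0.085 (SE), adjusted p = 0.00472 in the mixed group. COL18A1 was lower in miR200b_mimic at -0.51 ± 0.10 (SE), adjusted p = 2.1e-05 and likewise in miR92b_inhibitor at -0.49 ± 0.094 (SE), adjusted p = 4.14e-05. The mixed group call was lost without miRcontrol replicate 1 (0.18) or without replicate 1 of the mixed group (0.23).

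COL18A1 shares 1401 exon bases with SLC19A1 on the opposite strand, which held 7747 counts over all libraries against 5371 for COL18A1. The log2 fold change of SLC19A1 was -0.091 in miR3124_mimic and 0.061 in the mixed group, -0.21 in miR200b_mimic and -0.12 in miR92b_inhibitor, and the value in miR200b_mimic was the 1 of these that was called (adjusted p = 0.0157). COL15A1 had few reads, at 0.401 and 0.537 CPM in miRcontrol, 1.502 and 2.15 in miR3124_mimic and 1.35 and 0.805 in miR200b_mimic. It had 0.525 and 0.931 CPM in miR92b_inhibitor and 0.719 and 1.45 in the mixed group. The call in miR3124_mimic was 1.96 ± 0.46 (SE), adjusted p = 0.000362. That in the mixed group, 1.21 ± 0.50 (SE), adjusted p = 0.0454, was lost with DESeq2 (1.22) and when either miRcontrol library (1.01 and 1.43) or replicate 2 of the mixed group (0.61) was left out.

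**Figure D3:**
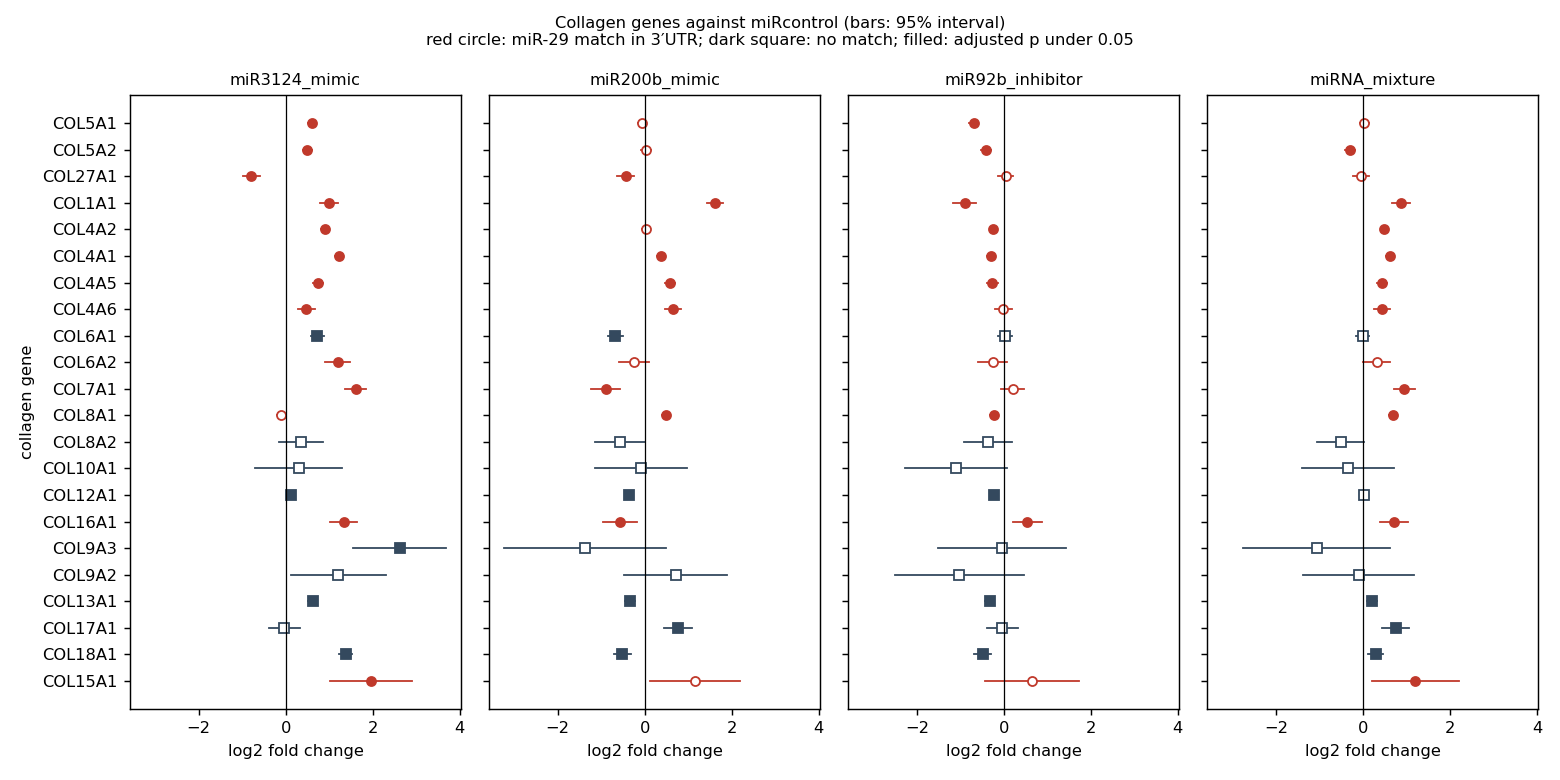
Log2 fold change against miRcontrol (x axis) of the 22 measured collagen genes (y axis) in the 4 transfected groups, with 95% intervals. Red circles have a miR-29 seed match in the 3′UTR, dark squares have none, and filled symbols passed an adjusted p of 0.05. In miR3124_mimic filled symbols lie to the right in both kinds, apart from COL27A1.

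Summed over all 44 members, the unmeasured ones included, collagen mRNA made up 1237 ± 18.3 CPM (SD, n = 2) in miRcontrol and 1965 ± 29.5 in miR3124_mimic. The sum was 1299 ± 22.3 CPM in miR200b_mimic, 1012 ± 31.7 in miR92b_inhibitor and 1566 ± 26.5 in the mixed group. The sum is dominated by the abundant chains, and in bulk samples a higher level in each cell cannot be told apart from more cells that express the gene. The measured type IV chains took 39.9% ± 0.32 of this sum in miRcontrol, 40.9% ± 0.013 in miR92b_inhibitor and 43.7% ± 0.20 in miR200b_mimic. Their share was 45.2% ± 0.20 in the mixed group and 49.2% ± 0.025 in miR3124_mimic. No test was applied to the sums.

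**Figure D4:**
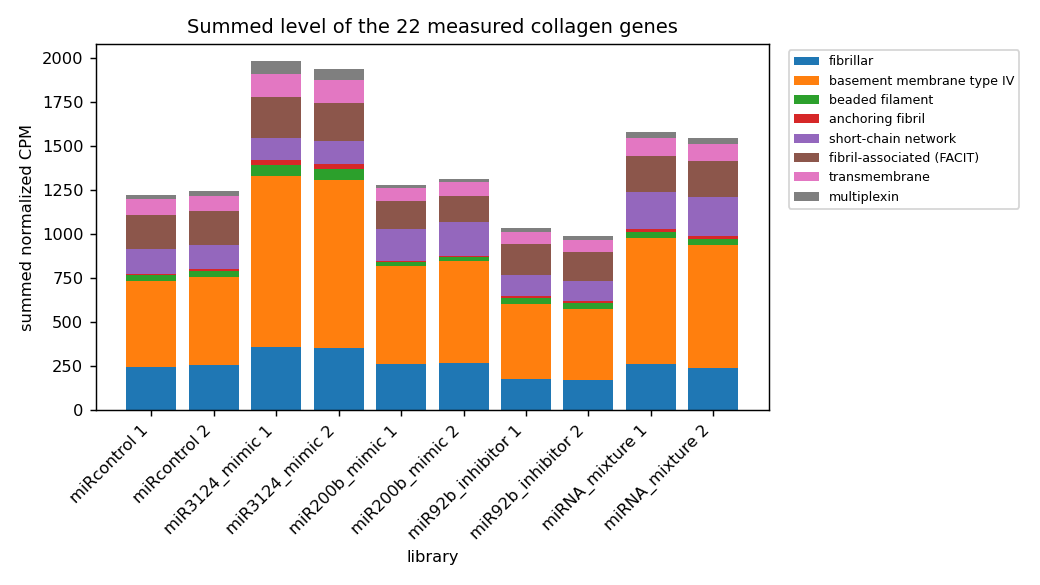
Summed normalized CPM of the 22 measured collagen genes in each library (bars), divided by collagen class (colors). The miR3124_mimic bars are the tallest, and type IV collagen is the widest segment in every library.

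The miR-29 matches were set beside the changes. Of the 13 collagens with a match, 11 were called higher and 1 lower in miR3124_mimic, with a median log2 fold change of 0.90. Of the 9 without a match, 5 were called higher and none lower, with a median of 0.62. Over all tested genes with a 3′UTR, 40.5% of those with a match were called higher and 22.8% lower, against 26.5% and 29.4% of those without, and the medians were 0.11 and -0.015. A higher share of calls upward with a match was thus also seen over all genes in that group. The rise in miR3124_mimic was therefore present in collagens of both kinds, and COL18A1, COL13A1 and COL6A1 are examples that hold no match.

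In the mixed group 9 of 13 collagens with a match were called higher and 1 lower, with a median of 0.49, and 3 of 9 without a match were called higher, with a median of -0.010. In miR200b_mimic 5 of 13 were higher and 3 lower with a match (median 0.027), and 1 of 9 was higher and 4 lower without one (median -0.35). In miR92b_inhibitor 1 of 13 was higher and 7 lower with a match (median -0.25), and 3 of 9 were lower without one (median -0.33). Over all genes in the mixed group, 31.7% with a match were called higher and 22.5% lower (median 0.042), against 22.9% and 24.4% without (median -0.0098). In miR200b_mimic 31.6% of all genes with a match were called higher and 21.5% lower (median 0.038), which is close to the collagen counts, against 23.1% and 21.2% without (median 0.00026). In miR92b_inhibitor 18.7% with a match were called higher and 23.8% lower (median -0.026), against 19.6% and 20.3% without (median -0.0070).

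Only COL5A1 and COL7A1 held more than 1 match, so whether the changes follow the number of matches cannot be judged. COL5A1, with 4 matches, rose by 0.60 in miR3124_mimic, COL7A1, with 2, rose by 1.61, and among the genes with 1 match the values ran from -0.78 in COL27A1 to 1.96 in COL15A1. COL8A1, whose match is followed by an A, stood at -0.10 there. In miR3124_mimic 9 of the 10 collagens with a match followed by an A were called higher, with a median of 0.87, and 2 of the 3 with other matches. In miR200b_mimic the 10 had a median of 0.43 and the 3 a median of -0.44. Over all genes with a match of either form, 40.5% were called higher in miR3124_mimic, and the median in miR200b_mimic was 0.038. The 2 forms were not separated over all genes and 1 of them held only 3 collagens, so no difference between the forms can be read from these values. The miR-29 genes themselves had no row in the count files used here, so miR-29 levels were not analysed here.

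Seed matches of the miRNAs named in the groups stood in few collagens. The complement of the miR-3124-5p seed, CCCGCGA, stood in 1 of the 22 (4.55%), COL5A1, and in 76 of 12296 tested genes (0.618%). Of these 76 genes 46 were called lower and 10 higher in miR3124_mimic, with a median of -0.41, and COL5A1 was among the 10. Of the genes without this match, 28.1% were called lower and 28.9% higher, with a median of 0.0044. The miR-200b-3p complement, CAGTATT, stood in COL4A1 and COL9A2, or 9.09% of collagens against 19.4% of genes. Genes with it had a median of -0.058 in miR200b_mimic, against 0.020 without it. COL4A1 was 0.37 and COL9A2 0.71 there, and COL9A2 was not called.

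The miR-92b-5p complement, CCGTCCC, stood in COL4A2 and COL27A1, and the miR-92b-3p complement, GTGCAAT, in COL12A1, COL27A1, COL4A6 and COL5A1. These are 9.09% and 18.2% of the measured collagens, against 4.16% and 13.0% of all genes. In miR92b_inhibitor, COL12A1 and COL5A1 were called lower, COL4A2 was called lower, and COL27A1 and COL4A6 were not called. None of the 5 was called higher in the group that received the inhibitor. Of all genes with a miR-92b-5p match, 13.1% were called higher and 31.6% lower in miR92b_inhibitor (median -0.097), against 19.7% and 20.4% without (median -0.0066). With a miR-92b-3p match 17.9% were called higher and 21.9% lower (median -0.019), against 19.7% and 20.7% without (median -0.0081).

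The groups were also compared with each other. The mixed group differed from miR3124_mimic in 18 of 22 collagens, 15 of them lower in the mixed group, where 49.1% of all genes were called. The 3 higher ones were COL8A1, COL17A1 and COL27A1. Against miR200b_mimic it differed in 14, 11 of them higher (38.6% of all genes), and against miR92b_inhibitor in 13, all higher (39.6% of all genes). COL8A1 was called higher in the mixed group than in each of the other 4 groups.

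The mimic groups differed from each other in 18 collagens, 14 of them higher in miR3124_mimic, where 57.8% of all genes were called. COL7A1, COL16A1, COL18A1, COL6A1, COL13A1 and COL12A1 were called higher in miR3124_mimic and lower in miR200b_mimic. They differed directly by 2.50, 1.90, 1.89, 1.41, 0.95 and 0.48 (log2, largest adjusted p = 5.64e-13). The calls of COL12A1 in miR3124_mimic and of COL16A1 in miR200b_mimic were among those lost in refits. Other members had opposite signs without a call in both groups, such as COL6A2 and COL9A3, which differed directly by 1.45 and 3.99. The COL9A3 value rests on raw counts of 4 and 0 in miR200b_mimic. miR3124_mimic differed from miR92b_inhibitor in 21 collagens, 20 of them higher (58.8% of all genes), and miR200b_mimic differed from miR92b_inhibitor in 15, of which 10 were higher (50.5% of all genes). COL1A1 had the widest fold of these last pairs among members above 5 CPM, between miR200b_mimic and miR92b_inhibitor.

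A collagen chain needs enzymes and carriers before it becomes matrix, and 41 genes of this machinery were examined, of which 40 were tested. ADAMTS2 was not. In miR3124_mimic 23 were called higher and 5 lower, in miR200b_mimic 5 higher and 15 lower, in miR92b_inhibitor 4 higher and 19 lower, and in the mixed group 10 higher and 14 lower. Of all tested genes, the mixed group had 21.5% called higher and 21.1% lower, miR92b_inhibitor 17.5% and 18.2%, miR200b_mimic 21.4% and 19.1% and miR3124_mimic 25.7% and 25.3%, so that the 10 higher of 40 in the mixed group lay close to the background. The machinery genes had a median log2 fold change of -0.0050 for the mixed group and -0.21 for miR92b_inhibitor. Their median was -0.10 for miR200b_mimic and 0.18 for miR3124_mimic. Those that passed 2-fold are named here, and BMP1, P3H1, P4HA1 and PLOD1 are given beside them and were chosen after their values were seen.

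Propeptide cleavage, which trims procollagen outside the cell, held 3 of the 5 members past 2-fold in miR3124_mimic. ADAMTS14 and ADAMTS3, proteinases that remove the N-terminal propeptide, rose by 1.67 ± 0.23 (SE) and 1.44 ± 0.15 (SE), and PCOLCE2, an enhancer of C-terminal cleavage, rose by 1.18 ± 0.21 (SE). BMP1, the C-proteinase, rose by 0.87 ± 0.052 (SE), below 2-fold. Their adjusted p-values were 2.73e-08, 1.93e-11, 3.64e-06 and 1.95e-19. ADAMTS14 and PCOLCE2 had few reads, with means of 2.17 and 3.01 CPM in miRcontrol and 6.97 and 6.79 in miR3124_mimic.

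In miR200b_mimic the falls were widest in a folding factor and a secretion coat subunit. SEC23A, part of the COPII coat that carries procollagen out of the endoplasmic reticulum, had 174 and 173 CPM in miRcontrol, 69.0 and 67.5 in miR200b_mimic and 120.1 and 118 in the mixed group. It was lower, at -1.35 ± 0.048 (SE), adjusted p = 2.09e-27 in miR200b_mimic and -0.54 ± 0.044 (SE), adjusted p = 1.64e-14 in the mixed group, and its 3′UTR holds 2 miR-200b-3p matches. CRTAP, a subunit of the prolyl 3-hydroxylation complex, had 269.7 and 269 CPM in miRcontrol, 125 and 121 in miR200b_mimic and 147 and 147 in the mixed group. Its log2 fold change was -1.13 ± 0.042 (SE), adjusted p = 6.05e-27 in miR200b_mimic and -0.87 ± 0.040 (SE), adjusted p = 3.01e-23 in the mixed group, and it holds 1 match.

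P3H1, the enzyme of the same complex, was lower in miR200b_mimic at -0.88 ± 0.070 (SE), adjusted p = 1.03e-14 and holds no miR-200b-3p match. COL1A1 rose in that group while these 3 fell. Of the other machinery genes, SP1, SERPINH1, SP3, SAR1B, ADAMTS3, ITGA1, ITGA2 and DDR2 hold 1 miR-200b-3p match each. ITGA10 and ITGA11 hold 2 each. In miR200b_mimic none of these others fell past 2-fold, and the part of the matches in the changes was not tested. In miR92b_inhibitor the prolyl hydroxylase subunit P4HA1 was lower at -0.56 ± 0.058 (SE), adjusted p = 8.52e-11 and the lysyl hydroxylase PLOD1 at -0.62 ± 0.046 (SE), adjusted p = 4.44e-15, both under 2-fold.

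Of the collagen receptors, ITGA2, the alpha chain of a collagen-binding integrin, rose by 1.93 ± 0.047 (SE), adjusted p = 5.23e-34 in miR200b_mimic and by 1.98 ± 0.046 (SE), adjusted p = 1.88e-34 in the mixed group, and its 3′UTR holds 1 miR-200b-3p match, as that of CRTAP does. ITGA11, a fibroblast-type collagen integrin chain, rose by 1.94 ± 0.29 (SE), adjusted p = 2.3e-07 in miR3124_mimic and was lower in miR92b_inhibitor at -1.27 ± 0.43 (SE), adjusted p = 0.0178. DDR1, a collagen-activated receptor kinase, rose by 1.30 ± 0.21 (SE), adjusted p = 7.58e-07 in miR3124_mimic. ITGA11 and DDR1 had few reads. ITGA11 averaged 1.17 CPM in miRcontrol, 4.55 in miR3124_mimic and 0.478 in miR92b_inhibitor. DDR1 averaged 2.57 CPM in miRcontrol and 6.38 in miR3124_mimic. The alternatives described below were not examined for the machinery genes.

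The markers of the labelled tissue were mixed. KRT8, KRT18 and KRT7, keratins of simple epithelium, lay between 600.6 and 1561 CPM, while KRT5 and NKX2-1 reached at most 0.484 and 0.239 CPM. CDH1 and EPCAM averaged 0.146 and 0.289 CPM in miRcontrol and 9.97 and 10.2 in miR200b_mimic. They averaged 0.300 and 0.375 CPM in miR3124_mimic, 0.0565 and 0.142 in miR92b_inhibitor and 2.24 and 5.48 in the mixed group. KRT19, also a keratin of simple epithelium, went the other way from the summed epithelial level in the groups with the miR-3124-5p mimic, with means of 8.20 CPM in miRcontrol, 0.760 in miR3124_mimic, 2.62 in the mixed group, 5.13 in miR92b_inhibitor and 14.4 in miR200b_mimic. Of 8 fibroblast or mesenchymal markers, DCN was at 0 in every library and PDGFRA, LUM and FAP did not pass 0.226 CPM, while PDGFRB, THY1, VIM and FN1 were expressed.

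The summed level of the 8 epithelial markers was 2221 to 2268 CPM in miRcontrol, 2098 to 2188 in miR92b_inhibitor, 2774 to 2781 in miR3124_mimic, 4081 to 4109 in the mixed group and 4189 to 4271 in miR200b_mimic. The epithelial sum was almost wholly KRT8, KRT18 and KRT7, which averaged 814, 628 and 793 CPM in miRcontrol. The sum of the 8 fibroblast or mesenchymal markers was 7269 to 7297 CPM in miRcontrol and 6812 to 6961 in miR92b_inhibitor. It was 4439 to 4584 CPM in miR3124_mimic, 4470 to 4523 in miR200b_mimic and 4897 to 4912 in the mixed group. This sum was almost wholly VIM and FN1, which averaged 3800 and 3264 CPM in miRcontrol. The 3 groups that received a mimic were lower in that sum, and collagens rose in 2 of them more often than they fell. In the mixed group VIM averaged 2729 CPM, FN1 1990, THY1 173 and PDGFRB 11.8. In miR3124_mimic, where most collagens were higher, PDGFRB averaged 29.5 CPM against 7.63 in miRcontrol, THY1 286 against 211, FN1 3383 against 3264 and VIM 813 against 3800. The endothelial markers CDH5 and VWF averaged 3.26 against 0.0585 CPM and 0.534 against 0.117 CPM there. PTPRC, PECAM1 and VWF were at or below 0.615 CPM in every library. In miR200b_mimic FN1 averaged 1407 CPM and THY1 104. The part of these markers in the collagen changes was not tested.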

How the data were processed

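The data were mRNA-sequencing libraries of BEAS2B cells, 10 in all and 2 per group, prepared with a directional kit per the labels. The authors removed adapters and reads below Q20 and mapped the rest with TopHat (GRCh38 per the submitters' processing notes), and deposited raw counts per gene symbol, without normalization; the annotation, the counting tool and the strand setting are not given in the sources used here. Each file lists 58173 rows, of which 5771 repeat a symbol; the counts of repeated symbols were summed.

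Tests were run in R 4.3.3 with edgeR 4.0.16 (limma 3.58.1). Genes passing filterByExpr (14884) were normalized by RLE, and all 10 libraries were fitted together with the quasi-likelihood test without covariates, with Benjamini-Hochberg adjustment over all genes in each comparison. The study's methods name edgeR with a geometric normalization. DESeq2 1.42.0 was an alternative, and the scripts were tested on simulated data. The chi-square of the raw counts of the 2 libraries of a group was 1.77 to 2.76 times its degrees of freedom, more than counting error, so they were kept as 2 samples.

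The members, gene lists and tests were chosen with earlier results of these data known. Values of every library are given for the 13 members past a fold of 2 with an adjusted p under 0.05 against miRcontrol or among the 6 with the highest mean CPM, and the others are given in ranges, with per-gene values where called. Seed matches were searched in GENCODE v29 3′UTRs (longest coding transcript per gene), and mature miRNAs came from RefSeq.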

Additional observations from a re-analysis of the deposited data

How the results depend on the processing

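The number of called collagens stayed within 1.5 times the value given above in all 10 comparisons under every alternative that was run. These were TMM normalization, scaling by library totals alone, the DESeq2 Wald test, fits restricted to the 2 groups of a comparison, no filter, a minimum of 10 counts in each library (which kept 18 of the 22), the row with the most counts in place of summed rows, a replicate block and leaving out each library in turn. No label says whether the replicate numbers pair libraries across groups. Correlations of replicate differences between groups ran from -0.0404 to 0.0253 over 12974 genes with a mean above 1 CPM. These values showed no shared replicate effect over all genes, and cannot tell whether the libraries were paired. With the replicate block 17 collagens were called in miR3124_mimic, 13 in the mixed group, 13 in miR200b_mimic and 11 in miR92b_inhibitor. The block changed no count in the other comparisons. Of 1024 single-gene values recomputed, 973 kept their direction and side of the threshold, 17 lost their call, 7 gained one and 27 changed sign, all 27 of genes that were not called. COL6A1 in the mixed group was 0.0016 with TMM and 0.0050 with library totals only. When each library was left out in turn, the log2 fold changes that changed sign ran in miR3124_mimic from -0.17 to 0.96 for COL10A1 and -0.083 to 0.020 for COL17A1. In miR200b_mimic they ran from -0.020 to 0.058 for COL4A2, -0.0091 to 0.067 for COL5A2, -0.66 to 0.59 for COL10A1 and -0.12 to 1.16 for COL9A2. Those of miR92b_inhibitor ran from -0.35 to 0.22 for COL9A3, -0.033 to 0.011 for COL4A6, -0.078 to 0.15 for COL27A1, -0.065 to 0.13 for COL6A1, -0.076 to 0.017 for COL17A1 and -0.059 to 0.41 for COL7A1. The mixed group had ranges from -0.050 to 0.11 for COL5A1, -0.90 to 0.43 for COL9A2, -0.82 to 0.32 for COL10A1, -0.038 to 0.015 for COL6A1, -0.0093 to 0.040 for COL12A1 and -0.10 to 0.012 for COL27A1. With only the 2 groups compared, COL8A1 (-0.10) and COL9A2 (1.21) were called in miR3124_mimic. Calls were also gained by COL7A1 in miR92b_inhibitor without its replicate 1 (0.41), COL15A1 in miR200b_mimic without its replicate 2 (1.51) and COL8A2 in the mixed group without its replicate 2 (-0.91). COL9A3 became called in miR200b_mimic and in the mixed group when the library left in that group had no count. The median of the collagens in miR200b_mimic turned to 0.011 without miRcontrol replicate 2. The cause of these shifts was not tested. Counting error is largest, relative to the level, in COL8A2, COL10A1, COL15A1, COL9A2 and COL9A3, which averaged under 3 CPM.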
